A study of Mus musculus with 16 samples.

Results

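Nodal and BMP signals were followed through 10 genes: Nodal, its inhibitors Lefty1, Lefty2, Smad7 and Skil, the ligand Bmp4, the BMP targets Id1, Id2 and Id3, and Bmper, which binds BMPs outside the cell. They were found as the non-control probes whose gene name or RefSeq transcript belonged to 1 of these genes, which gave 12 probes for the 10 genes, of 55681 probes and 20977 named genes on the array. All 10 genes passed the filter on dim probes, which asked for 4 or more of the 16 arrays with a signal well above background. Bmper passed on exactly 4 arrays, all of them in 1 group. Skil and Bmp4 had 2 probes each, and the other genes had 1.

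Nodal and BMPs are secreted ligands of the TGF-beta family that act through serine/threonine kinase receptors. Nodal receptors phosphorylate SMAD2 and SMAD3, BMP receptors phosphorylate SMAD1, SMAD5 and SMAD9, and both kinds of SMAD enter the nucleus with SMAD4. In mouse embryonic stem cells, BMP signals acting through Id genes are known to work with LIF in holding cells undifferentiated, while Lefty1, Lefty2, Smad7 and Skil are known targets of Nodal signals that feed back to restrain them.

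The cells were E14, a mouse embryonic stem cell line grown in serum with LIF, and all groups were transfected with plasmid by Lipofectamine 2000, sorted for eGFP at 24 h, plated again and harvested at 48 h. EGFP cells received the fluorescent protein alone. Another group received Ptn(TALE)VP64 (Ptn_VP64 below), another Ptn(TALE)DEL (Ptn_DEL), and the last Ptn(TALE)Delta (Ptn_Delta). A TALE is a designed DNA-binding protein, here directed to Ptn, the gene of the growth factor pleiotrophin; VP64 is a synthetic transcriptional activator. The labels describe neither DEL, known as an acidic peptide able to decondense chromatin, nor Delta. PolyA RNA was hybridised to 16 single-colour arrays, 4 per group, which the labels describe as 2 biological and 2 technical replicates without saying which arrays are which. All results therefore come from transient expression in 1 cell line, with at most 2 independent samples in a group.

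A level below is the log2 of a probe's processed signal minus the log2 of the 75th percentile of that array, so 0 is the 75th percentile. Group levels are given as mean ± SD over arrays and differences in log2 as estimate ± SE. The 75th percentile was 209.3 to 1253 intensity units over the arrays, and 27.1% to 43.8% of spots were well above background. Slide 1 held replicates 1 and 2, and slide 2 held replicates 3 and 4. Each construct kept the same column on both slides, so position and construct cannot be told apart. Broad dim or bright patches covered 1.32% to 39.6% of spots of an array, and the median coefficient of variation of repeated spots was 55.0% to 111.3% on slide 1 arrays and 20.1% to 48.2% on slide 2 arrays. Levels are therefore also given after patch correction, a step chosen after the data were seen, which subtracts the local shift around a spot and drops spots in strong patches; 8 of the 10 genes were left in that fit, without Lefty2 and Bmper. The ES cell markers were well above background in every group, 10 of 10, with summed levels of 286.8 to 1146 times the 75th percentile. Ptn itself was 4.26 ± 0.88 higher after Ptn_VP64 than after EGFP on patch-corrected arrays (adjusted p = 0.0452 in limma with arrays unaveraged, 3 and 2 arrays), and 4.77 ± 0.88 higher in the test over pairs (adjusted p = 0.740), which rests on 1 Ptn_VP64 array against 4.

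Promoters are shown for Bmper and for Id2 and Id3, known targets of BMP SMADs. Among the genes followed, Bmper had the largest measured differences from EGFP. Its fits against EGFP used 1 EGFP array, so this ranking describes measured levels and does not establish a difference. Each run is the 250 bases before the RefSeq start in GRCm38.p6, read 5′ to 3′ on the gene's strand, and capitals mark GGCGNC, a GC-rich letter pattern bound by BMP SMADs, and CAGAC, a core pattern bound by SMAD3 and SMAD4, on either strand. Bmper lies at chr9:23222826-23223075 (plus strand), Id2 at chr12:25096093-25096342 (minus strand) and Id3 at chr4:136143572-136143821 (plus strand).
Bmper: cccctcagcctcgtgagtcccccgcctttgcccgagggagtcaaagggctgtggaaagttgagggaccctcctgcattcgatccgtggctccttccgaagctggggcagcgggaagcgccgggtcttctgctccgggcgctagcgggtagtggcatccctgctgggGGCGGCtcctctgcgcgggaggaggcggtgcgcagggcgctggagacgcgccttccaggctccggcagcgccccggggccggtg
Id2: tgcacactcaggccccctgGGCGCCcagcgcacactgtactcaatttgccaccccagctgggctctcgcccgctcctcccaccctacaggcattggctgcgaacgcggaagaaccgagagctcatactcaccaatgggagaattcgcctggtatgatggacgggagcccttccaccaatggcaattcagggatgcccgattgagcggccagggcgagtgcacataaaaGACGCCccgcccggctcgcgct
Id3: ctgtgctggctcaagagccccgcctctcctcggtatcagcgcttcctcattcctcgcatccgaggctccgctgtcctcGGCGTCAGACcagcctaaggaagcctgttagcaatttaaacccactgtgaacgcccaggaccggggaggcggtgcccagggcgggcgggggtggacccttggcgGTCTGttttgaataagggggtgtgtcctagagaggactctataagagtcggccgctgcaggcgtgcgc
The Bmper window held 1 GGCGNC and 0 CAGAC. The Id2 window held GGCGNC at 2 places, 1 of which reads the same on both strands, and 0 CAGAC. The Id3 window held 1 GGCGNC and 2 CAGAC, with 1 base shared between the GGCGNC and the CAGAC next to it. Over 32851 promoters of this length, 30.7% held GGCGNC and 42.2% held CAGAC, so these matches only describe the letters. The Nodal and Bmp4 windows held neither.

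Nodal is the ligand of its branch. Its levels were -0.58, 2.64, 4.31 and 3.52 in EGFP replicates 1 to 4, 4.02, 1.03, 3.11 and 3.69 after Ptn_VP64, -0.99, 2.75, 3.72 and 4.69 after Ptn_DEL, and 4.97, 3.63, 4.06 and 4.91 after Ptn_Delta. The lowest values were EGFP replicate 1, Ptn_VP64 replicate 2 and Ptn_DEL replicate 1, each in a dim patch, and the groups overlapped. After correction the levels were 3.73 ± 0.37 (n = 3) in EGFP, 3.19 ± 0.38 (n = 2) after Ptn_VP64, 3.94 ± 0.36 (n = 3) after Ptn_DEL and 4.22 ± 0.26 (n = 3) after Ptn_Delta. Ptn_VP64 was the lowest group and did not overlap Ptn_DEL or Ptn_Delta there, while EGFP and Ptn_DEL, next to each other in order, did overlap.

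Lefty1 and Lefty2 are secreted antagonists that keep Nodal from its receptors. They are near-identical copies, and how far each probe also reads the other copy is not known here. Lefty1 levels were 5.28, 3.67, 4.26 and 3.25 in EGFP, 2.65, 4.06, 2.76 and 3.52 after Ptn_VP64, 5.51, 4.40, 4.69 and 4.44 after Ptn_DEL, and 5.66, 4.23, 1.04 and 4.39 after Ptn_Delta. All 4 Ptn_DEL arrays lay above all 4 Ptn_VP64 arrays, a separation in that direction that 2.7% of all genes had with marked spots kept. EGFP replicates 1 and 3, Ptn_VP64 replicate 2 and Ptn_Delta replicates 1 and 3 had spots that the scanner software marked as uneven or as outliers, and these 5 were left out of the fits. On corrected levels Lefty1 was 3.12 ± 0.38 (n = 3) after Ptn_VP64, 3.81 ± 0.27 (n = 2) in EGFP, 4.02 ± 0.01 (n = 2) after Ptn_Delta and 4.51 ± 0.34 (n = 4) after Ptn_DEL. Its difference between Ptn_VP64 and Ptn_DEL was -1.39 ± 0.28 in the unaveraged patch-corrected fit (adjusted p = 0.0964 in limma) and -1.43 on slide 1 and -1.38 on slide 2 alone.

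Lefty2 levels were 1.45, 3.58, 3.73 and 1.62 in EGFP, 2.63, 3.29, 2.86 and 2.96 after Ptn_VP64, 2.26, 1.05, 3.53 and 3.21 after Ptn_DEL, and 2.72, -1.38, 3.79 and -2.82 after Ptn_Delta. The Ptn_Delta arrays spread over more than 6 log2 units, and replicates 1, 2 and 4 of that group lay in dim patches. All 4 groups overlapped. Only 1 EGFP and 1 Ptn_Delta array were left after correction, so Lefty2 was not tested there.

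Skil codes for SnoN, a corepressor that binds SMADs and blocks their activity, and its brighter probe had 10 spots on each array. Its corrected levels were 2.86, 2.91, 2.78 and 2.95 in EGFP, 2.22, 2.04, 2.40 and 2.64 after Ptn_VP64, 2.70, 3.30, 3.06 and 3.44 after Ptn_DEL, and 3.02, 3.16, 2.92 and 3.34 after Ptn_Delta. Every Ptn_VP64 array was below every array of the other groups, while EGFP, Ptn_DEL and Ptn_Delta overlapped one another. Of all genes, 10.7% were lower without overlap after Ptn_VP64 than in EGFP on corrected levels. Against Ptn_DEL and Ptn_Delta the shares were 9.23% and 11.9%. The share of genes below all other groups at once was not counted. Ptn_VP64 replicate 2 rested on 1 spot after correction. Before correction the levels were 2.25, 2.07, 2.93 and 2.69 in EGFP, 1.89, 1.15, 2.49 and 2.71 after Ptn_VP64, 2.45, 2.45, 3.04 and 3.70 after Ptn_DEL, and 2.55, 2.54, 3.00 and 3.81 after Ptn_Delta, and Ptn_VP64 overlapped each of the other groups.

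**Figure D1:**
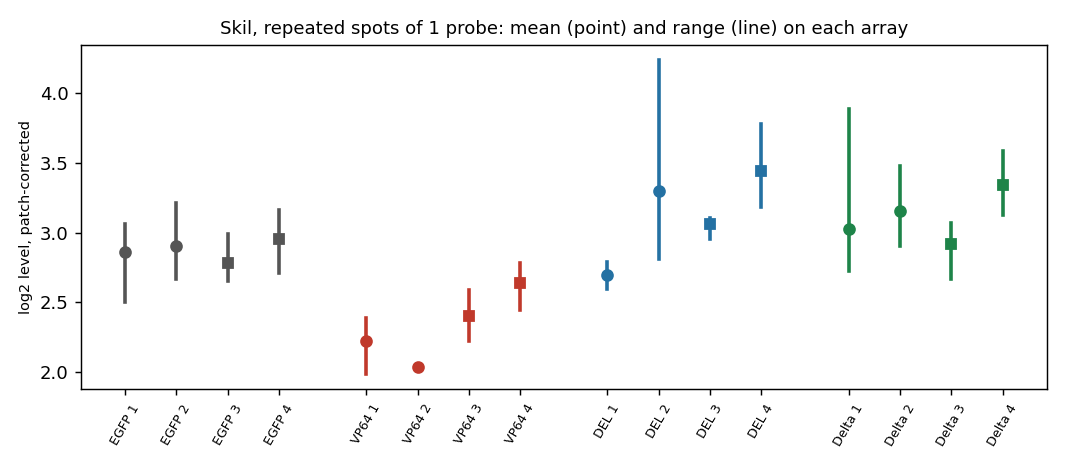
Patch-corrected log2 level of Skil on each of the 16 arrays, with the point at the mean of the spots used and the line from the lowest to the highest spot; circles are slide 1 and squares slide 2. The Ptn_VP64 means, 2.04 to 2.64, lie below the 2.70 to 3.44 of the other groups, though single spots overlap.

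The Ptn_VP64 deficit of Skil was -0.55 ± 0.17 against EGFP, -0.80 ± 0.17 against Ptn_DEL and -0.79 ± 0.17 against Ptn_Delta in the unaveraged patch-corrected fit, none of which passed (adjusted p = 0.122, 0.0699 and 0.068 in limma). With the replicate number as a block, since same-numbered arrays of the TALE groups deviated together on corrected levels, Skil was lower after Ptn_VP64 at -0.80 ± 0.15 against Ptn_DEL (adjusted p = 0.0195 in limma, 1.91% of all genes called) and -0.79 ± 0.15 against Ptn_Delta (adjusted p = 0.0226, 1.79% called). That fit also takes technical repeats for independent samples. The 3 differences share the Ptn_VP64 arrays. Against Ptn_DEL the difference had the same sign in all 20 alternatives (-0.98 to -0.68), and against Ptn_Delta likewise (-1.10 to -0.61). The other Skil probe, dimmer and well above background on 13 arrays, was also lowest after Ptn_VP64, at -1.65 ± 0.59 (n = 4), beside -0.92 ± 1.00 (n = 3) in EGFP, -0.95 ± 0.48 (n = 4) after Ptn_DEL and -0.86 ± 0.55 (n = 4) after Ptn_Delta. Its groups overlapped.

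Smad7 is an inhibitory SMAD that competes for the receptors of both branches. Its levels were 0.44, 1.13, 0.60 and 2.02 in EGFP, 0.70, 3.12, 2.85 and 2.55 after Ptn_VP64, 1.69, 1.37, 2.64 and 0.83 after Ptn_DEL, and 2.14, 0.70, 2.23 and 0.38 after Ptn_Delta. Ptn_VP64 replicates 2, 3 and 4 were higher than all EGFP arrays, whereas Ptn_VP64 replicate 1, a marked spot in a dim patch, lay among them. With the spots of Ptn_VP64 replicates 1 and 2 left out as marked, the remaining Ptn_VP64 values both came from slide 2. The corrected difference from EGFP was 1.18 ± 0.81 (adjusted p = 0.561 in limma).

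**Figure D2:**
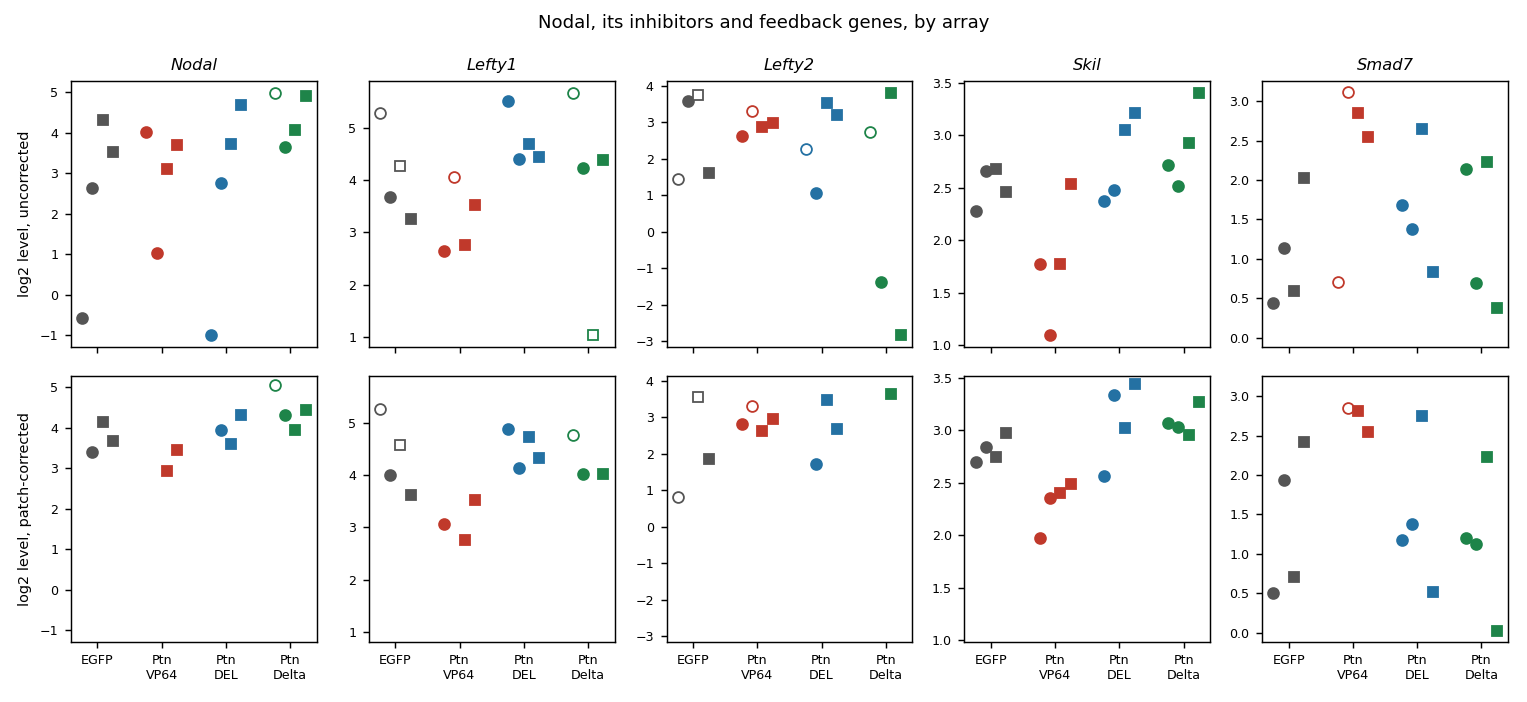
Log2 level of Nodal, Lefty1, Lefty2, Skil and Smad7 on each array, before patch correction (top) and after it with marked spots kept (bottom); circles are slide 1, squares slide 2, and open symbols had all spots marked. Arrays missing below lay in patches, and Skil after Ptn_VP64 sits below the other groups in the lower row.

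Bmp4 is a BMP ligand made by embryonic stem cells themselves. The probe used read 5.92, 3.02, 5.25 and 4.76 in EGFP, 5.75, 3.89, 5.33 and 5.09 after Ptn_VP64, 5.59, 2.71, 4.94 and 5.14 after Ptn_DEL, and 5.97, 3.92, 5.31 and 5.36 after Ptn_Delta. Replicate 2, the lowest in every group, lay in dim patches in EGFP and Ptn_DEL. After correction the levels narrowed to 4.88 to 5.45 over 13 arrays, at 5.37 ± 0.10 (n = 2) in EGFP, 5.28 ± 0.19 (n = 4) after Ptn_VP64, 5.00 ± 0.10 (n = 3) after Ptn_DEL and 5.07 ± 0.16 (n = 4) after Ptn_Delta. The other Bmp4 probe was not well above background on any array.

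Id1, Id2 and Id3 code for helix-loop-helix proteins that bind and silence DNA-binding partners, and all are targets of BMP SMADs. Corrected Id1 was 4.09 ± 0.67 (n = 3) in EGFP, 3.38 ± 0.26 (n = 3) after Ptn_VP64, 3.85 ± 0.36 (n = 3) after Ptn_DEL and 4.34 ± 0.77 (n = 2) after Ptn_Delta. Ptn_VP64 was the lowest and did not overlap Ptn_Delta, but it overlapped EGFP and Ptn_DEL. Before correction Id1 ran from -0.29 in Ptn_Delta replicate 1, in a dim patch, to 5.04 in Ptn_Delta replicate 2.

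Id2 read 2.74, 1.49, 3.51 and 3.10 in EGFP, 3.40, 1.49, 4.54 and 3.29 after Ptn_VP64, 4.04, 4.13, 3.67 and 4.01 after Ptn_DEL, and -0.01, -3.18, 3.68 and 3.98 after Ptn_Delta. The 2 slide 1 arrays of Ptn_Delta lay in dim patches and set the group's low mean. After correction the groups stood close together, at 3.27 ± 0.03 (n = 2) in EGFP, 3.61 ± 0.90 (n = 3) after Ptn_VP64, 3.52 ± 0.12 (n = 4) after Ptn_DEL and 3.59 ± 0.12 (n = 2) after Ptn_Delta. The difference of Ptn_DEL from Ptn_Delta, 2.84 ± 1.22 before correction (adjusted p = 1 in limma), was -0.07 after it.

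Id3 read 4.17, 3.91, 2.95 and 3.06 in EGFP, 3.53, 3.84, 4.90 and 3.79 after Ptn_VP64, 4.29, 4.44, 2.94 and 4.84 after Ptn_DEL, and 5.05, 4.41, 3.80 and 5.23 after Ptn_Delta. EGFP replicate 3 and Ptn_DEL replicate 3 were the lowest, and the groups overlapped. Corrected levels were 3.51 ± 0.10 (n = 2) in EGFP and higher in the other groups, at 4.38 ± 0.74 (n = 2) after Ptn_VP64, 3.97 ± 0.58 (n = 4) after Ptn_DEL and 4.33 ± 0.47 (n = 4) after Ptn_Delta. The differences from EGFP were 0.86 ± 0.57, 0.46 ± 0.45 and 0.82 ± 0.45 and shared the 2 EGFP arrays; none passed.

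Bmper is a secreted protein with chordin-like repeats that can restrain or assist BMP ligands. Its levels were 0.04, 0.57, 0.44 and 0.40 in EGFP, -1.01, -2.78, -4.44 and -3.35 after Ptn_VP64, -4.69, -2.95, -4.36 and -3.61 after Ptn_DEL, and -3.74, -0.22, -4.11 and -5.23 after Ptn_Delta. EGFP arrays were above every other array. EGFP replicate 1, Ptn_DEL replicate 1 and Ptn_Delta replicate 4 lay in dim patches for this probe. The signal was well above background on 4 of 4 EGFP arrays and on 0 of the 12 others, a pattern that no other of the 20977 named genes had (0.00477% of them). This call did not follow intensity alone. Ptn_VP64 replicate 1 and Ptn_Delta replicate 2 failed it at intensities of 621.3 and 659, while EGFP replicate 2 passed at 310.3. Bmper is therefore given as a lower bound under a rule. Each array of the dim group was set to the higher of its own signal and the weakest signal well above background. On Ptn_VP64 replicates 1 and 2 that weakest signal was -4.10 and -7.64, below Bmper's own -1.01 and -2.78. Such arrays enter at their measured signal, so the folds given as at least, here and below, hold only under this rule. EGFP was at least 6.08-fold above Ptn_VP64, at least 7.48-fold above Ptn_DEL and at least 5.17-fold above Ptn_Delta, on measured means of 0.36 ± 0.23 in EGFP, -2.89 ± 1.43, -3.90 ± 0.78 and -3.33 ± 2.16 (n = 4 arrays each). The 3 comparisons share the EGFP arrays.

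The Bmper signal in EGFP carried a technical mark on 3 of 4 arrays, so the fits used EGFP replicate 2 alone. In the test over pairs of arrays the differences from EGFP were -2.65 ± 0.92, -3.66 ± 0.92 and -3.09 ± 0.92 for Ptn_VP64, Ptn_DEL and Ptn_Delta, with unadjusted p = 0.0279, 0.00737 and 0.0154 and adjusted p = 1, 1 and 0.983 in limma. None passed. Over the 13 alternatives that could be fitted the sign was the same in each comparison, and the lowest adjusted p were 0.0667, 0.415 and 0.244. Groups did not overlap in this direction in 1.33%, 0.203% and 0.172% of all 12779 genes when marked spots were kept. Bmper passed the filter on dim probes only through EGFP, the group where it was high. These p-values and shares therefore only describe its values and are no separate support for a difference.

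**Figure D3:**
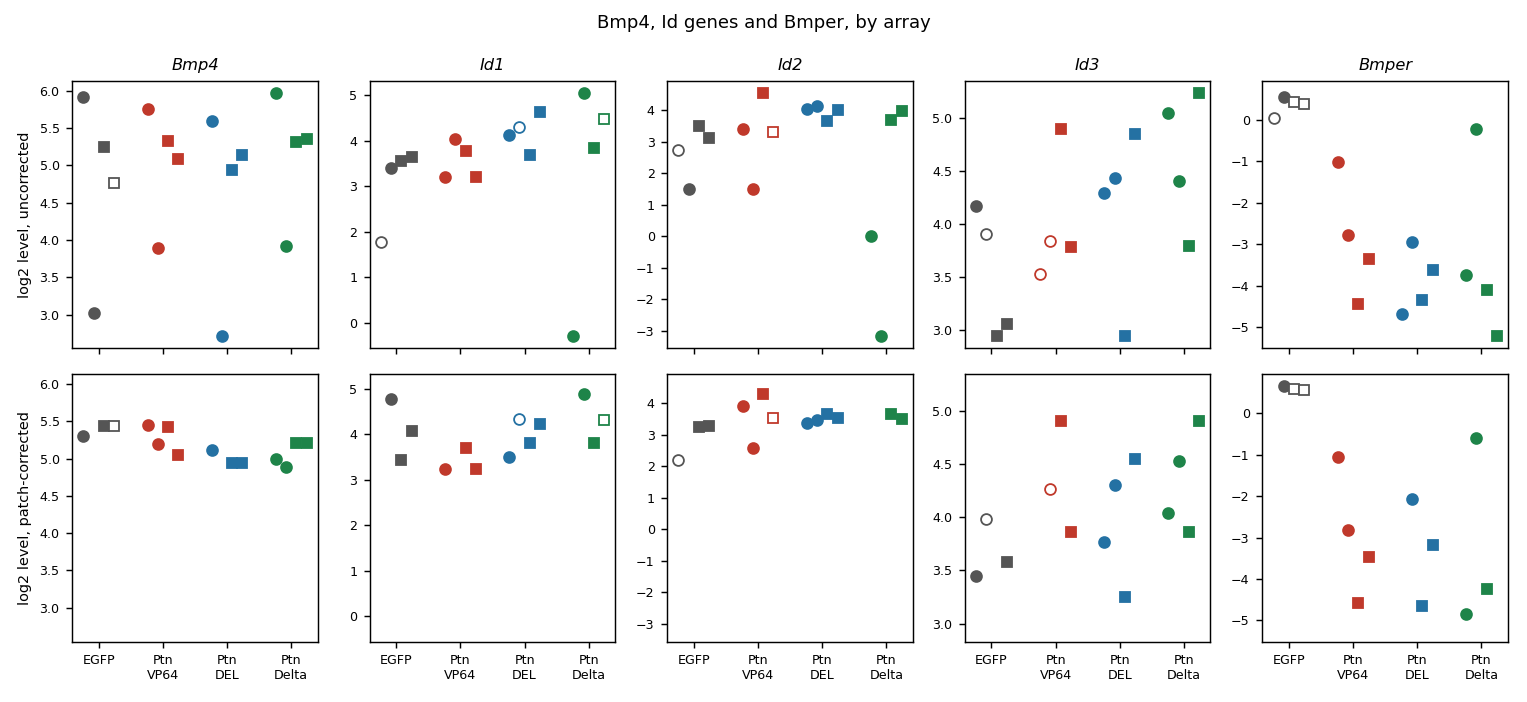
Log2 level of Bmp4, Id1, Id2, Id3 and Bmper on each array, before patch correction (top) and after it with marked spots kept (bottom); circles are slide 1, squares slide 2, and open symbols had all spots marked. The EGFP arrays of Bmper lie between 0.04 and 0.57 in the upper row, above all other arrays, and 3 of the 4 are open.

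The comparisons of each TALE construct with EGFP ask how expression differs with the construct. Between Ptn_VP64 and EGFP, limma called 0 of the 10 genes in the test over pairs of arrays (0% of 12736 genes called, 490 at unadjusted p under 0.05) and 0 of 8 in the unaveraged patch-corrected fit (2.45% of 11063 called). Beside Bmper, the smallest p were of Smad7 (1.55 ± 0.82, adjusted p = 1) and Id3 (1.06 ± 0.85, adjusted p = 1). The median difference of the 10 genes was -0.01, beside 0.07 over all genes. On corrected levels 4 of 8 genes did not overlap between these groups, Lefty1 and Skil lower and Smad7 and Id3 higher after Ptn_VP64, where 10.7% of all genes did so in the lower and 13.3% in the higher direction. Apart from Skil, these genes had only 2 or 3 values in a group, or 2 against 4 for Smad7, and fewer values separate more easily. With marked spots kept Id3 overlapped, with EGFP replicate 2 at 3.987 and Ptn_VP64 replicate 4 at 3.862.

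Between Ptn_DEL and EGFP, limma called 0 of the 10 genes over pairs of arrays (0% of 12736 called, 341 at unadjusted p under 0.05) and 0 of 8 in the unaveraged patch-corrected fit (0.0362% of 11063 called). Next to Bmper stood Lefty1 (1.30 ± 0.80, adjusted p = 1) and Id2 (1.06 ± 0.91, adjusted p = 1). After correction Lefty1 was 0.70 ± 0.30 higher on 2 EGFP arrays (adjusted p = 0.681), and 0.15 ± 0.36 with the marked spots kept, where the groups overlapped. With marked spots left out Lefty1 and Id2 were higher after Ptn_DEL without overlap on corrected levels, where 6.64% of all genes were, and Bmp4 was lower, beside 4.77%. With marked spots kept and no correction, Id1 and Id2 were higher without overlap, beside 3.3%. Between Ptn_Delta and EGFP the counts were again 0 of 10 in limma (0% of 12725 called, 502 at unadjusted p under 0.05) and 0 of 8 (0.0271% called). There the smallest p beside Bmper were of Nodal (1.59 ± 0.81, adjusted p = 0.983) and Id3 (1.03 ± 0.64, adjusted p = 0.983). On corrected levels the Nodal difference was 0.49 ± 0.33, and the median of the 8 genes was 0.22 beside 0.03 over all genes. Lefty1, Id2 and Id3 were higher without overlap there, beside 8.02% of all genes, and Bmp4 was lower, beside 5.63%. For Lefty1 this was 4.01 and 4.03 against at most 4.00, and with marked spots kept Ptn_Delta was the lower group, at 4.27 ± 0.43 (n = 3) beside 4.37 ± 0.72 (n = 4) in EGFP. Id3 also overlapped with marked spots kept, with EGFP replicate 2 at 3.987 and Ptn_Delta replicate 3 at 3.865.

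The TALE constructs were also compared with one another, which leaves out the EGFP arrays. Between Ptn_VP64 and Ptn_DEL, limma called 0 of the 10 genes over pairs of arrays (0% of 12779 called, 235 at unadjusted p under 0.05) and 0 of 8 in the unaveraged patch-corrected fit (0.416% called). The smallest p were of Lefty1 (-1.65 ± 0.65, adjusted p = 1), Skil (-0.85 ± 0.59, adjusted p = 1) and Bmper, whose signal was not well above background in either group. Nodal, Lefty1 and Skil were lower after Ptn_VP64 without overlap on corrected levels, where 9.23% of all genes were. Between Ptn_VP64 and Ptn_Delta the counts were 0 of 10 in limma (0% of 12768 called, 370 at unadjusted p under 0.05) and 0 of 8 (0.271% called). Id2 (1.61 ± 0.91), Skil (-0.91 ± 0.59) and Lefty1 (-1.20 ± 0.80) had the smallest p there (adjusted p = 1 for each). On corrected levels Nodal, Lefty1, Skil and Id1 were lower without overlap, beside 11.9% of all genes, and Smad7 was higher, beside 12.2%. Nodal differed by -1.08 ± 0.40 (adjusted p = 0.376).

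Between Ptn_DEL and Ptn_Delta, limma called 0 of the 10 genes (0% of 12768 called, 82 at unadjusted p under 0.05) and 0 of 8 in the unaveraged patch-corrected fit, which called 0% of genes and had 65 at unadjusted p under 0.05. Id2 (2.84 ± 1.22), Nodal (-1.52 ± 0.81) and Lefty2 (1.98 ± 1.63) had the smallest p before correction (adjusted p = 1 for each), each with low arrays in dim patches. After it the 8 genes differed by -0.45 to 0.49, and Skil by 0.02 ± 0.17. Lefty1 was higher after Ptn_DEL without overlap on corrected levels, where 2.06% of all genes were, but on 2 Ptn_Delta arrays. With marked spots kept the groups overlapped, at 4.01 to 4.76 (n = 3) after Ptn_Delta and 4.13 to 4.87 (n = 4) after Ptn_DEL.

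**Figure D4:**
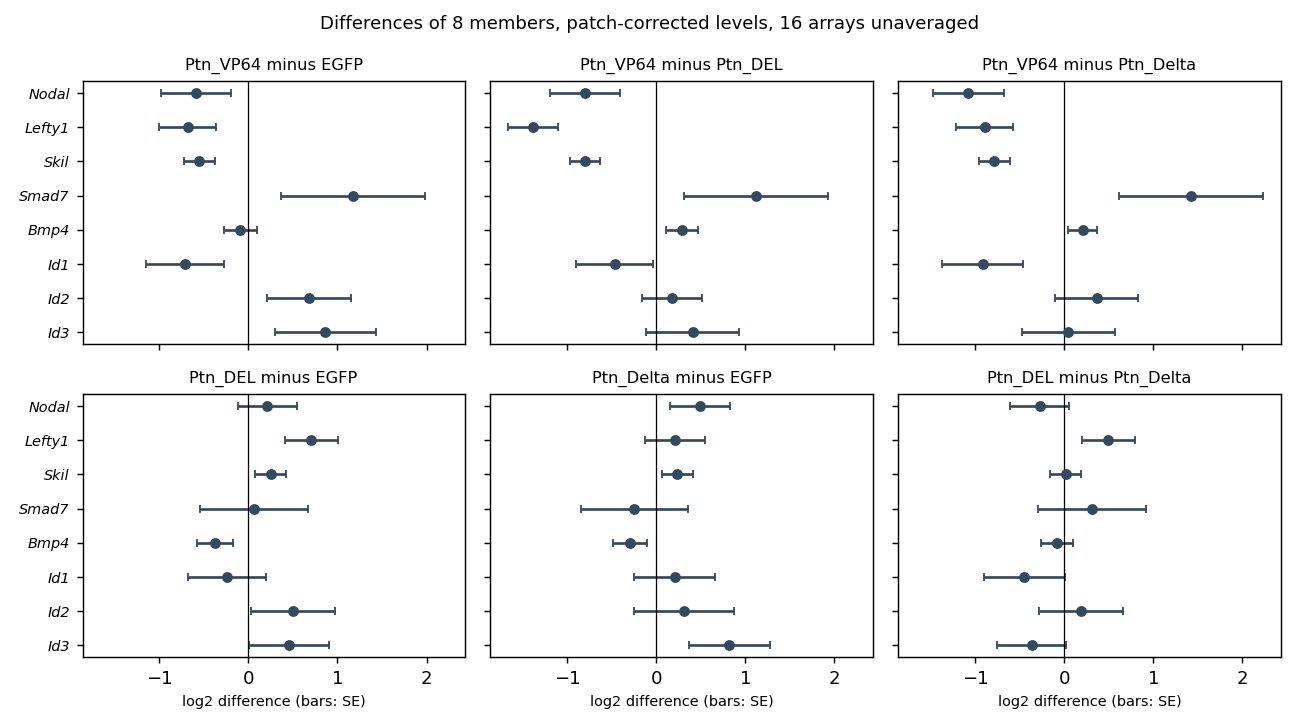
Log2 differences of 8 genes in the 6 comparisons, from the unaveraged fit of patch-corrected levels, with SE as bars; the vertical line is 0. Nodal, Lefty1, Skil and Id1 lie left of 0 in all 3 Ptn_VP64 comparisons, and no difference passed the threshold.

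The rest of the pathway was read from 80 genes in 11 groups, of which 58 were tested over pairs of arrays and 50 after correction, the 10 genes above included. Over pairs of arrays limma called 0 of the 58 in each comparison, with 8, 4 and 4 at unadjusted p under 0.05 for Ptn_VP64, Ptn_DEL and Ptn_Delta against EGFP. In the unaveraged patch-corrected fit 5 of 50 rose and 0 fell between EGFP and Ptn_VP64, where 1.87% of all genes rose. These were 4 of 27 genes listed for the BMP branch and 1 of 23 listed for the Nodal branch, Tgfbr2, which is known as a receptor of TGF-beta itself and not of Nodal. Because this fit takes technical repeats for independent samples, its p-values are smaller than the design supports. None was called between Ptn_DEL or Ptn_Delta and EGFP, with 4 and 3 of all genes called there. The lists were chosen with earlier results of these data known, and Tgfbr2 passed the filter mainly through Ptn_VP64. The count of pathway genes called is therefore a description and no test of the pathway.

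Nbl1, a secreted BMP antagonist of the DAN family, was not well above background on any EGFP array and was on all 12 others. Its corrected levels were -2.06, -2.82, -2.11 and -2.99 in EGFP, 0.84, 0.42, -0.07 and -0.53 after Ptn_VP64, -1.02, -1.74, -1.31 and -1.86 after Ptn_DEL, and -0.98, -1.84, -1.38 and -1.71 after Ptn_Delta. Ptn_VP64 was above every other group and EGFP below on corrected levels, an order that 0.569% of all genes had. That pattern of detection was found in 5 of the 20977 named genes, Nbl1 included (0.0238%). Before correction the order did not hold. Ptn_VP64 replicate 2 (-0.85) lay below Ptn_DEL replicate 1 (-0.54) and Ptn_Delta replicate 1 (0.01). EGFP replicate 1 (-1.51) lay above Ptn_DEL replicate 2 (-2.30) and Ptn_Delta replicate 2 (-1.79), though below all Ptn_VP64 arrays. Its level after Ptn_VP64 was at least 6.01-fold that in EGFP (adjusted p = 0.000953 in limma, unaveraged), or at least 4.30-fold before correction. It also passed against Ptn_DEL (1.64 ± 0.30, adjusted p = 0.0322, where 0.28% of all genes rose) and against Ptn_Delta (1.64 ± 0.30, adjusted p = 0.0432, where 0.199% rose). Without the block these 2 calls depended on single arrays. The first held only without Ptn_VP64 replicate 4 or Ptn_DEL replicate 3 and was lost without any other array of the 2 groups (adjusted p = 0.0697 to 0.123). The second held only without Ptn_VP64 replicate 4 and was lost without any other (adjusted p = 0.0508 to 0.143). Nbl1 against EGFP kept its call without any single array of the 2 groups (adjusted p = 0.000843 to 0.0051). Leaving out 1 array may leave its technical repeat in the fit, so this does not show that the call holds over independent samples. In the test over pairs of arrays Nbl1 did not pass against EGFP, at 2.39 ± 0.75, nor after correction, at 2.66 ± 0.40 (adjusted p = 0.3165 in limma).

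Bmp8b, a BMP ligand, was well above background on 1 of 4 EGFP arrays and rose after Ptn_VP64 (adjusted p = 0.00233 in limma), by 6.82-fold with the dim EGFP arrays taken at no less than the weakest signal well above background. Its corrected levels were 0.78 ± 0.89 (n = 4) after Ptn_VP64, -1.09 ± 0.31 (n = 3) after Ptn_DEL, -0.98 ± 0.36 (n = 4) after Ptn_Delta and -1.99 ± 0.30 (n = 4) in EGFP. Msx2, a homeobox target of BMP signals, was not well above background on any of the 3 EGFP arrays in the fit and was at least 7.36-fold higher after Ptn_VP64 (adjusted p = 0.0095). EGFP replicate 3, left out as marked, was well above background at -0.34 before correction, higher than 2 of the 4 Ptn_VP64 arrays, and with marked spots kept the Msx2 call was lost (2.29 ± 0.70, adjusted p = 0.129). Tgfbr2, the type II TGF-beta receptor, was at least 2.22-fold higher after Ptn_VP64 than in EGFP (adjusted p = 0.0142), at -1.36 ± 0.66 (n = 4) and -4.10 ± 0.37 (n = 3), and at least 1.58-fold before correction. Without Ptn_VP64 replicate 3 the Tgfbr2 call was lost (adjusted p = 0.0501). Tgfbr2 passed the filter on dim probes through 3 Ptn_VP64 arrays and 1 Ptn_DEL array, the fewest allowed. Its p-values therefore only describe its values and are no separate support for a difference.

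With the replicate number as a block, 4 of the 50 pathway genes rose and 1, Skil, fell between Ptn_DEL and Ptn_VP64, where 1.91% of all genes were called. Between Ptn_Delta and Ptn_VP64 3 rose and 1, again Skil, fell, where 1.79% of all genes were called. This fit takes technical repeats for independent samples, and the lists were chosen with earlier results of these data known. Against Ptn_DEL the genes that rose were Nbl1 by 1.64 ± 0.19 (adjusted p = 0.00242 in limma), Bmp8b by 1.91 ± 0.32 (adjusted p = 0.0171), Tgfbr2 by 1.44 ± 0.21 (adjusted p = 0.0121) and Msx2 by 2.39 ± 0.41 (adjusted p = 0.0296). Against Ptn_Delta they were Nbl1 by 1.64 ± 0.19 (adjusted p = 0.00213), Bmp8b by 1.76 ± 0.31 (adjusted p = 0.0215) and Tgfbr2 by 1.60 ± 0.24 (adjusted p = 0.0146). Tgfbr2 was well above background on 1 of 4 Ptn_DEL arrays and on no Ptn_Delta array, and Msx2 on 2 of 4 Ptn_DEL arrays. The sizes of these differences are therefore uncertain. Tgfbr2 passed the filter on dim probes mainly through Ptn_VP64, so its p-values here only describe its values. Without the block Msx2 did not pass against Ptn_DEL in limma (adjusted p = 0.119, or 0.422 with marked spots kept). Between Ptn_DEL and Ptn_Delta limma called 0 of 50 under the block, and 0% of all genes.

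Bmp1, a protease that cleaves the BMP antagonist chordin, was 1.02 ± 0.21 higher after Ptn_VP64 than in EGFP (adjusted p = 0.0258 in limma). The Bmp1 call was lost without EGFP replicate 1 (adjusted p = 0.0574) and without Ptn_VP64 replicate 2, 3 or 4 (adjusted p = 0.0603, 0.104 and 0.0504). In the test over pairs another Bmp1 probe stood for the gene, at 3.78 ± 1.05 on 1 Ptn_VP64 array and with 1 of 4 EGFP arrays well above background, and it was among the 2 smallest p in each comparison with EGFP (2.38 ± 0.85 for Ptn_DEL and 2.36 ± 0.85 for Ptn_Delta, adjusted p = 1 and 0.983). The other smallest p were of Cfc1, a Nodal coreceptor, at least 4.00-fold above EGFP for Ptn_VP64 (adjusted p = 0.921) and at least 3.46-fold for Ptn_Delta (adjusted p = 0.983). None of the 3 EGFP arrays used for Cfc1 was well above background, while EGFP replicate 3, left out as marked, was, at 0.16, higher than all 4 Ptn_VP64 arrays. Inhbb, an activin subunit, differed by -3.33 ± 1.25 for Ptn_DEL (adjusted p = 1), with 2 of 4 Ptn_DEL arrays well above background.

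**Figure D5:**
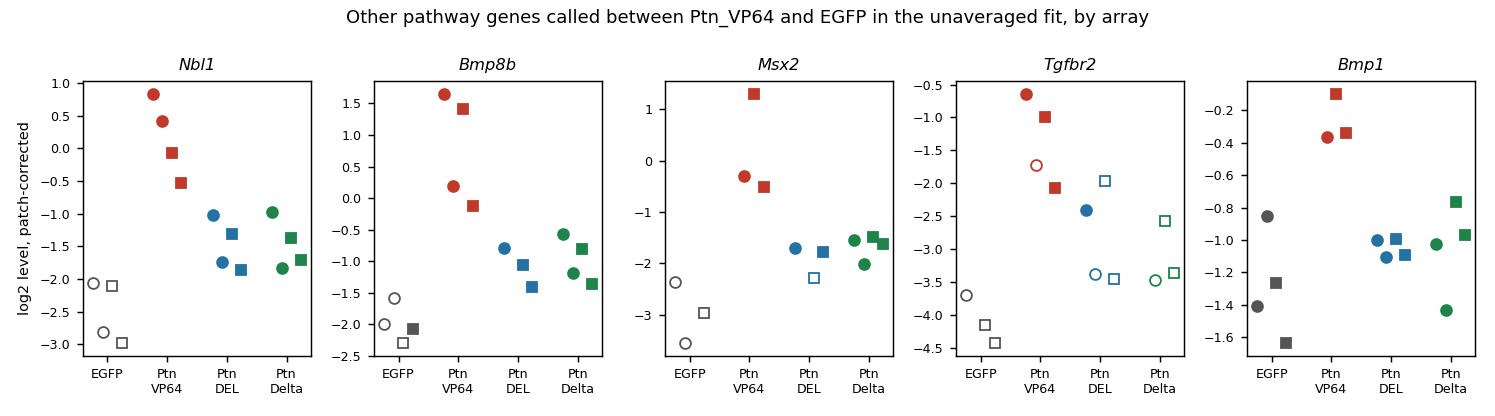
Patch-corrected log2 levels of Nbl1, Bmp8b, Msx2, Tgfbr2 and Bmp1 on each array; circles are slide 1, squares slide 2, and open symbols were not well above background, with marked spots left out. All Ptn_VP64 points lie above the EGFP points of the same gene, which for Nbl1 run from -2.99 to -2.06.

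Markers of other cell types were summed on each array without a test. Only the trophoblast and primitive endoderm sums after Ptn_VP64 lay wholly above those in EGFP, and all other sums overlapped EGFP. The summed uncorrected level of 9 trophoblast markers was 4.15 to 22.8 times the 75th percentile in EGFP, 23.8 to 176.2 after Ptn_VP64, 13.9 to 50.1 after Ptn_DEL and 15.3 to 65.7 after Ptn_Delta. Among them 4 were well above background on at least 2 EGFP arrays and 7 in each of the other groups. Elf5 was on no array, and Cdx2 and Hand1 on no EGFP array. Of all spots, 27.15% to 41.19% were well above background on EGFP arrays. The shares were 34.88% to 41.44% after Ptn_VP64, 36.1% to 40.69% after Ptn_DEL and 34.38% to 43.78% after Ptn_Delta, so counts of detected markers also follow the arrays. The summed level of 7 fibroblast markers was 0.87 to 3.18 in EGFP, 2.03 to 7.09 after Ptn_VP64, up to 3.28 after Ptn_DEL (median 2.16, beside 1.26 in EGFP) and 1.63 to 6.79 after Ptn_Delta, with 1, 4, 4 and 3 of them well above background on at least 2 arrays. For 8 primitive endoderm markers the sums were 1.07 to 2.55 in EGFP, 2.61 to 3.63, 1.62 to 4.97 and 1.85 to 4.02, with 1, 6, 7 and 7 well above background. For 6 mesoderm markers they overlapped in all groups, at 0.97 to 4.71 in EGFP, 0.70 to 2.94, 0.44 to 1.87 and 0.83 to 4.28, with 1, 1, 1 and 2 well above background. Their part in the differences of Nbl1, Bmp8b, Msx2, Tgfbr2 and Skil was not tested. In these bulk samples fewer cells of a type and less RNA per cell cannot be told apart.

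Patterns over arrays were compared for the gene with the highest mean in each branch. Lefty1 had 11 corrected arrays, too few for the minimum of 12. For Bmp4 the most alike of 2151 genes were Rabac1 (r = 0.85), Cited2 (r = 0.85) and Nxpe4 (r = 0.83), each over 12 arrays. Skil was added after its values were seen, since it has a value on all 16 arrays, and the most alike of 7718 genes were Rab31 (r = 0.94, 13 arrays), Znhit2 (r = 0.92, 13 arrays) and Mmp11 (r = 0.92, 12 arrays). Skil and Bmp4 ran opposite to each other (r = -0.58, 13 arrays). The arrays share groups, slides and technical repeats, and the genes were picked as the highest of many, so these values only describe the libraries.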

How the data were processed

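RNA of 16 samples was measured on single-colour Cy3 arrays. Per the file headers, the processed signal is an intensity from Agilent Feature Extraction (version 11.5.1.1, array design on mm9), with the background subtracted and spatial trends removed and with no scaling across arrays. The authors' deposited series values are log2 and have a median of 6.30 in every array; they follow the scanner signal with r = 0.974 to 0.999 and were used only as an alternative. Of 62976 spots per array, 3671 controls were left out. Probes were named through the deposited gene names and RefSeq accessions matched to a GRCm38.p6 gene table, so 27667 probes had a symbol; no probe positions are given because the builds differ.

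The log2 signal was scaled to the array's 75th percentile, spots marked as non-uniform or population outliers were left out, and repeated spots were averaged. The filter of 4 or more of 16 arrays well above background left 24148 probes, and each of 12779 genes took its probe of highest mean. For each of the 3 ways to pair the 4 arrays of a group, pairs were averaged (slide as a term for 1+2 and 3+4) and all groups fitted with limma 3.58.1 (R 4.3.3, lmFit and eBayes, 2-sided). Each gene kept its largest p, Benjamini-Hochberg adjustment ran over all genes tested, and adjusted p under 0.05 was called. Patch correction took, on 17800 spots, the median difference from the all-array median in a 21 by 21 window and dropped spots whose shift lay over 1 log2 unit away from that of their array, with at least 2 arrays per group (11063 genes). Its unaveraged fit used all 16 arrays with the slide as a term and counts technical repeats as replicates. P-values measure the spread between these arrays. Same-numbered arrays share a slide and a row of it, and the labels do not say that numbers pair samples. Their deviations from the group means correlated with r = -0.07 to 0.46 on uncorrected levels (15 of 24 pairs over 0.1), where in 0 of 6 comparisons every pair was over 0.1, and with r = -0.08 to 0.78 on corrected levels (21 of 24 pairs), where in 3 of 6, those between TALE constructs, every pair was. For these 3 the blocked value of corrected levels is given where it changes a call. No 2 arrays were duplicates (r at most 0.97).

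Normexp used the median signal because the mean signal was not in the tables used here. All 10 genes were named with their levels, with the 3 smallest p in each comparison, and from the pathway lists the genes past the threshold in either fit and otherwise the 2 smallest p against EGFP. The genes, lists and patch correction were chosen with earlier results of these data known. Scripts were tested on simulated data. RefSeq promoters matched 5 of 9 genes looked for.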

Additional observations from a re-analysis of the deposited data

How the results depend on the processing

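In the test over pairs of arrays 0 of the 10 genes and 0 of all genes were called in each of the 6 comparisons, and leaving out any single array kept both at 0. The count over all genes moved with the processing. Patch correction over pairs called 3 genes for Ptn_VP64 against EGFP, 1 against Ptn_DEL and 1 against Ptn_Delta, and with marked spots kept 3 for the first. Arrays unaveraged gave 5, 1 and 4, or 19, 2 and 3 with marked spots kept. Unaveraged and patch-corrected, the counts were 271, 46 and 30 for Ptn_VP64 against EGFP, Ptn_DEL and Ptn_Delta, and 4 and 3 for Ptn_DEL and Ptn_Delta against EGFP; with marked spots kept they were 271, 41, 35, 4 and 2. Without single arrays the unaveraged corrected counts ran from 99 to 309, 12 to 64, 5 to 53, 0 to 28 and 0 to 22. Ptn_VP64 replicates 1 and 3 gave the lowest counts against EGFP, 104 and 99. Without EGFP replicate 4 the counts for Ptn_DEL and Ptn_Delta against EGFP were the highest, 28 and 22. Against Ptn_DEL the Ptn_VP64 count was 12 to 24 without Ptn_VP64 replicate 1 or 3 or Ptn_DEL replicate 1, 2 or 4, and against Ptn_Delta 5 to 20 without Ptn_VP64 replicate 1 or 3 or Ptn_Delta replicate 1, 2 or 4.

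With the replicate number as a block the unaveraged fit called 53, 2 and 6 genes for Ptn_VP64 against EGFP, Ptn_DEL and Ptn_Delta. The replicate block with patch correction called 566, 211 and 198 genes, and 7 and 7 for Ptn_DEL and Ptn_Delta against EGFP. It called 1 of the 10 genes in each of 2 comparisons, Skil, at -0.80 ± 0.15 between Ptn_VP64 and Ptn_DEL (adjusted p = 0.0195) and -0.79 ± 0.15 between Ptn_VP64 and Ptn_Delta (adjusted p = 0.0226). It called no other of the 10 genes. For Ptn_VP64 against EGFP it called 6 of 50 pathway genes, the 5 named above and Tob2, beside 5.12% of all genes.

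Of the differences of single members named above, 3 reversed, all of Id2. Between Ptn_DEL and Ptn_Delta Id2 was -0.0714 after patch correction, with or without marked spots. Between Ptn_VP64 and Ptn_Delta it was -0.00158 after patch correction with marked spots kept. Leaving out single arrays moved the latter from -0.18 to 2.85, and from -0.16 to 0.64 after correction, negative without Ptn_Delta replicate 2 and without Ptn_VP64 replicate 3. The cause was not tested. The other 314 alternatives kept their sign and side of the threshold, beside the 2 of Skil that passed. Another scaling moved the median of all genes by up to 0.22 (the median of detected probes, Ptn_Delta against EGFP). Signal over background limits Bmper most, and marked spots and patches limit Lefty2.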
